A study of Homo sapiens with 6 samples.

Results

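The mitotic programme of SNU-398 cells, an established human hepatocellular carcinoma line, was described through 36 genes of G2 phase and mitosis, compared between cultures with an shRNA against SALL4 and cultures with a scrambled control shRNA. The genes were chosen by their role in cell division, with earlier results of these data known. RNA was measured on Affymetrix arrays, and the brightest probe set of each gene was used. Of the 36 genes, 35 had a value among the 18404 genes that the annotation names on the array. CENPA, the centromeric histone H3 variant, had no value, because the probe set that carries its name is shared with another gene. All 35 passed the filter on dim genes in both groups, and their lowest intensity on any array was 69.9, well above the floor of 10 at which the deposited values end. The 6 arrays were 3 of SALL4 shRNA cultures and 3 of scrambled shRNA cultures, all grown in RPMI medium with fetal bovine serum, which are labelled as biological replicates within each group. SALL4 encodes a DNA-binding zinc finger protein that is active in stem cells and in the liver before birth. The labels do not say how many hairpins targeted SALL4 or whether the cells were a clone or a pool, and they name no rescue. Other effects of the hairpin and effects of lower SALL4 cannot be told apart.

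Entry into mitosis is driven by cyclin B bound to the kinase CDK1, which is held inactive by the kinases WEE1 and PKMYT1 and released by CDC25 phosphatases. Kinetochore proteins then attach chromosomes to spindle microtubules, a checkpoint of kinases and adaptors delays anaphase until attachment is complete, and the anaphase-promoting complex with CDC20 destroys cyclin B and securin. The genes of this machinery peak together late in the cell cycle. Their promoters are repressed in resting cells by the DREAM complex and activated later by B-MYB with the MuvB core and by FOXM1, through an element called the cell cycle genes homology region (CHR).

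SALL4 itself had intensities of 121, 119 and 117 with the SALL4 shRNA and 283, 264 and 335 in the scrambled arrays. All 3 knockdown values lay below all 3 control values, and the log2 difference was -1.30 ± 0.18 (SE, limma adjusted p = 0.0112). The fit held 13711 genes whose log2 intensity averaged 5 or more in at least 1 group, and limma called 220 of them (1.6%) at an adjusted p under 0.05. Of these 145 fell (1.06% of the fit) and 75 rose (0.547%). Without SALL4 shRNA replicate 1, 2 or 3 the count was 103, 61 and 103, and without scrambled replicate 1, 2 or 3 it was 39, 46 and 79. A fit without the filter on dim genes called 0 of 18404 genes, with 2864 at an unadjusted p under 0.05, and gave SALL4 an adjusted p of 0.0946. The first principal component held 37.3% of the variance. On it the SALL4 shRNA arrays lay at -31 to -14.9 and the scrambled arrays at 20.3 to 22.1. SALL4 shRNA replicate 2 and scrambled replicate 3 stood apart from the other arrays on the second principal component (23.4 and 19.3, against -16.9 to -1.77), which held 19.8% of the variance. Hepatocyte markers were largely dim in these cells: 8 of 12 measured did not reach the filter, among them ALB, whose intensity averaged 12.1 with the SALL4 shRNA and 11.2 in the scrambled arrays. Of 5 epithelial markers EPCAM was the brightest, averaging 894 with the SALL4 shRNA and 963 in the scrambled arrays. KRT18 (102 with the SALL4 shRNA, 99.8 scrambled), KRT8 (56.4 and 36.7 in the same order) and KRT19 (56.7 and 54.3) were dimmer. CDH1 (28.4 and 27.1) did not reach the filter, and none of the 5 was called. PTPRC lay at the floor on every array, and 4 of 5 measured blood cell markers and all 5 endothelial markers did not reach the filter. The summed intensity of 7 fibroblast markers was 1105 to 1469 with the SALL4 shRNA and 1429 to 1565 in the scrambled arrays. Of these DCN was called (83.4 on average with the SALL4 shRNA, 195 in the scrambled arrays), and no other was. COL3A1 (235 with the SALL4 shRNA, 348 scrambled), LUM (649 and 670 in the same order) and THY1 (110 and 124) also had lower means. COL1A1 (96.5 and 74.6), COL1A2 (77.1 and 54.3) and PDGFRB (53.7 and 41.8) had higher means. The part of these markers in the results below was not tested.

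None of the 35 mitotic genes passed limma over all genes (0 of 35, against 1.6% of the fit, with 1.06% lower and 0.547% higher), and their adjusted p ranged from 0.0926 for NUF2 to 0.987 for UBE2C. Most sat slightly lower with the SALL4 shRNA: 27 of 35 had a negative difference (77.1%, against 48% of all genes in the fit) and 8 a positive one. The median log2 difference was -0.22, beside 0.02 over all genes in the fit, and single genes ran from -0.61 for HMMR to 0.83 for NUF2. An unadjusted p under 0.05 was reached by 5 of 35 genes (14.3%, against 16.9% of all genes), so that share lay near the background. Of these 5, PLK1, BUB1B, HMMR and PTTG1 were lower and NUF2 was higher. That count was 1 without SALL4 shRNA replicate 3 and 2 without scrambled replicate 1 or 2. The groups did not overlap in 10 of 35 genes (28.6%, against 22.4% of all genes), 7 lower (11% of all genes) and 3 higher (11.4%). For 30 of the 35 genes the 95% interval of the difference lay within a 2-fold change in either direction. That held for a similar share of all genes in the fit, 11750 of 13711. Of the 35 genes, the 5 whose intervals reached 2-fold were CDK1, PLK1, NUF2, KIF2C and HMMR. These are bulk cultures, in which fewer cells in G2 and mitosis and less of each transcript per dividing cell cannot be told apart. With 3 arrays per group the precision is limited, and no exact permutation p can lie below 0.1.

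**Figure D1:**
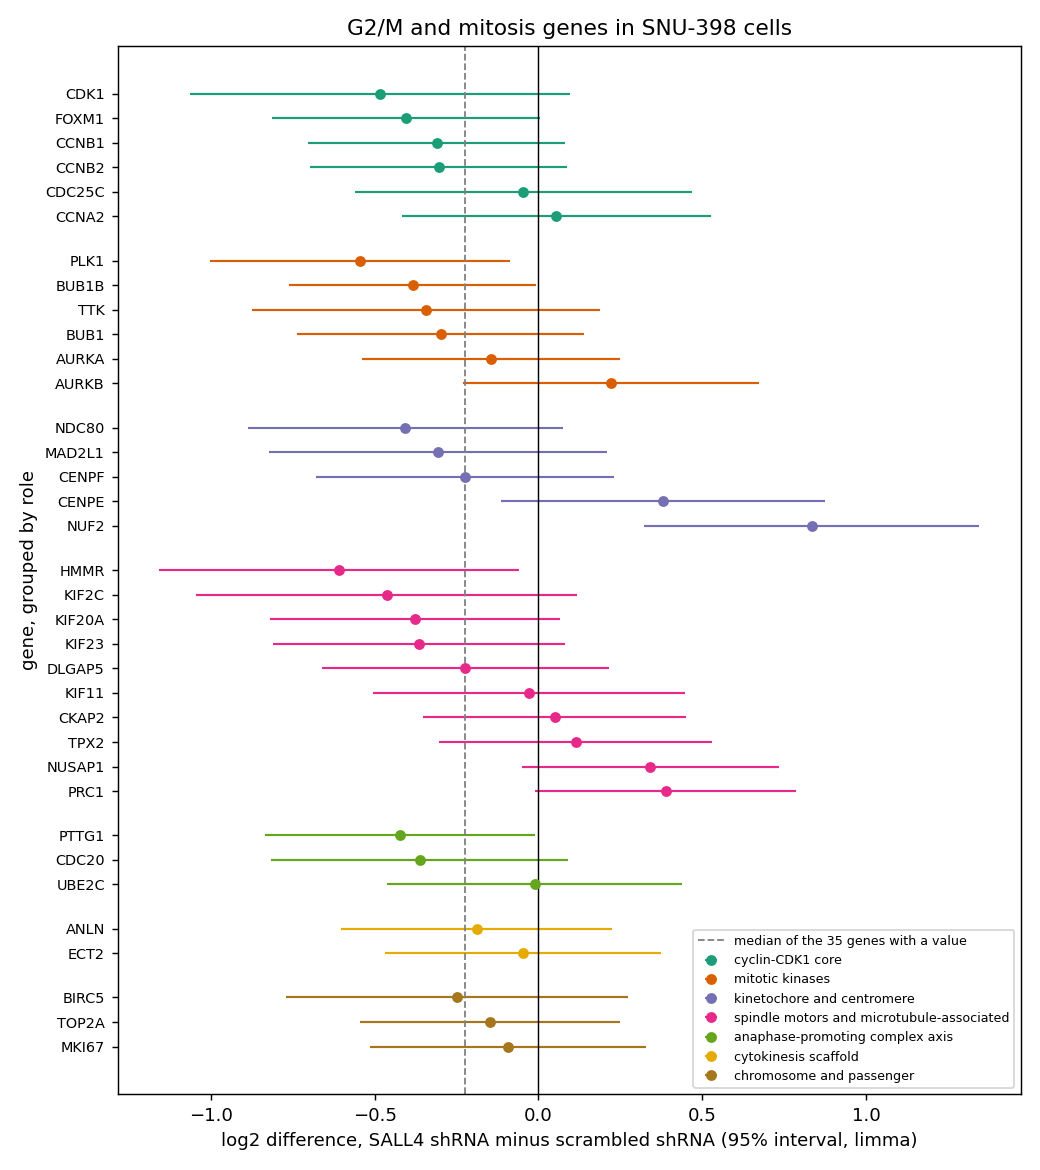
Log2 difference of each of the 35 genes (x axis, SALL4 shRNA minus scrambled shRNA, with the 95% interval from limma), grouped by role on the y axis. Most points lie left of 0 around the dashed median of -0.22, while NUF2 at 0.83, PRC1 at 0.39, CENPE at 0.38 and NUSAP1 at 0.34 lie to the right.

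The individual arrays differed in how low the set lay. Relative to the scrambled mean of each gene, the median over the 35 genes was -0.11, -0.34 and -0.14 on the log2 scale in SALL4 shRNA replicates 1, 2 and 3, and 0.05, 0.02 and -0.14 in scrambled replicates 1, 2 and 3. Scrambled replicate 3 therefore lay at the level of 2 knockdown arrays, and the groups overlapped. SALL4 shRNA replicate 2 was the lowest knockdown array for 19 of 35 genes (54.3%, against 40.3% of all genes in the fit), and scrambled replicate 3 was the lowest control array for 23 of 35 (65.7%, against 36.8%). These arrays also stood apart on the second principal component. Leaving out both gave a median of -0.20 with 25 of 35 differences negative. Leaving out SALL4 shRNA replicate 2 alone, or scrambled replicate 1 alone, gave a median of -0.15. Medians of the role groups moved as well. Without SALL4 shRNA replicate 2 they were -0.17 for the kinases, -0.08 for the kinetochore, -0.07 for the spindle and -0.04 for the cytokinesis genes. Without scrambled replicate 1 they were -0.18 for the anaphase-promoting complex axis and -0.06 for the chromosome and passenger genes.

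**Figure D2:**
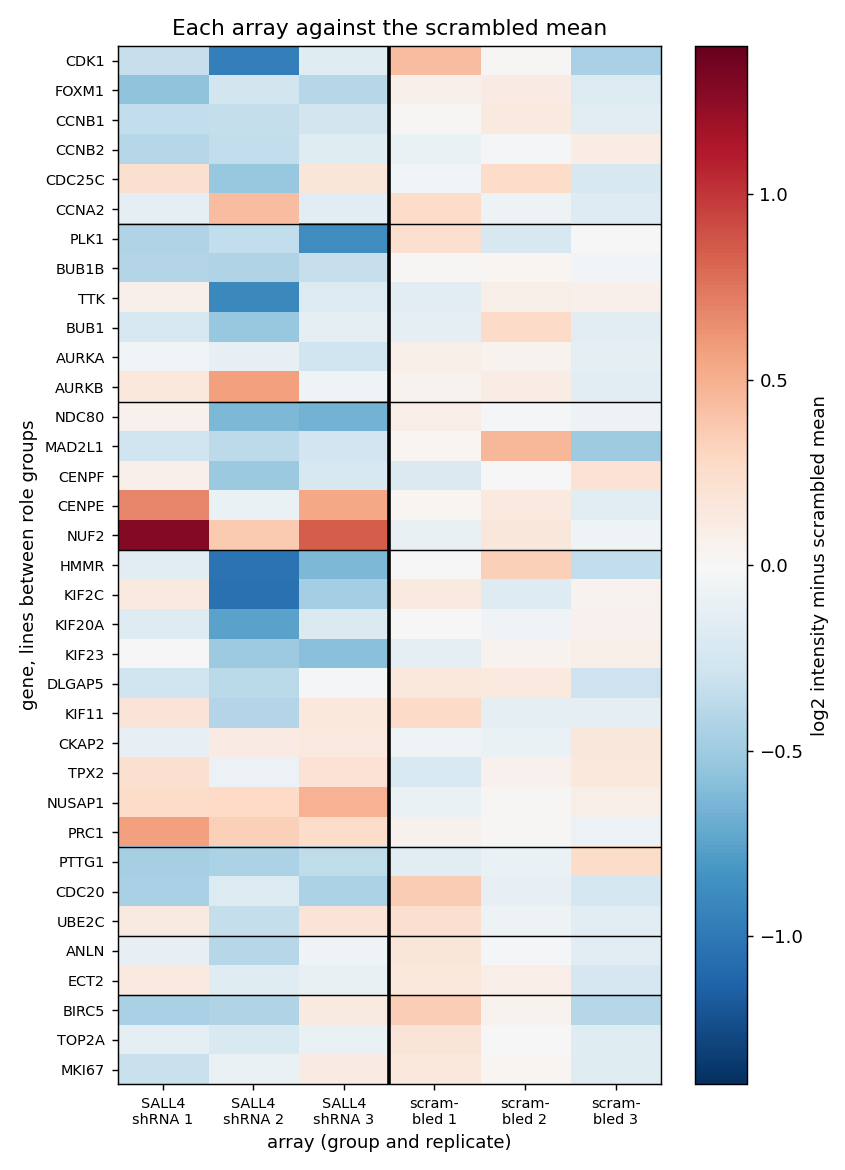
Each cell is the log2 intensity of a gene (rows, by role) on an array (columns, SALL4 shRNA replicates left of scrambled replicates) minus the scrambled mean of that gene, in blue where lower and red where higher. NUF2 is red in all 3 SALL4 shRNA arrays, BUB1B and PTTG1 are blue in all 3, and SALL4 shRNA replicate 2 holds the deepest blue cells, in CDK1, TTK, HMMR and KIF2C.

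The promoter windows of the set held CHR letters at a higher share than promoter windows at large, a difference that was not tested. RefSeq promoter windows of 300 bases (GRCh38.p14, 250 before and 50 after the start) were found for 30 of the 36 genes, spread over 13 chromosomes. The letters TTTGAA or TTCGAA of the CHR, on either strand, occurred in 21 of these 30 windows (70%), against 11.1% of 10853 windows of genes in the fit and 16.4% of all 35116 windows. CCAAT, the letters bound by NF-Y, occurred on either strand in 22 of 30 (73.3%), against 35.9% of windows of genes in the fit. Both occurred in 17 of 30 (56.7%, against 4.54%). A match is a description of letters and not a site. The windows from 120 bases before to 30 after the start are shown for the 5 genes with an unadjusted p under 0.05, for NDC80 as the partner of NUF2 and for PRC1, the second highest gene, so that lower and higher members can be compared. CHR and CCAAT letters are in capitals, and CCAATTGG is a CCAAT overlapping its reverse complement.
HMMR, chr5:163460512-163460661, plus strand: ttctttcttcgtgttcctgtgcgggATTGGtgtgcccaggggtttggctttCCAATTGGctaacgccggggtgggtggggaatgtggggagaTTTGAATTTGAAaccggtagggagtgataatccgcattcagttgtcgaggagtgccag
PLK1, chr16:23678769-23678918, plus strand: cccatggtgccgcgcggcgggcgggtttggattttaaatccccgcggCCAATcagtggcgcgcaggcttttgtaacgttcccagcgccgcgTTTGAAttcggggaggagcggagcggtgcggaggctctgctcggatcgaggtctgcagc
PTTG1, chr5:160421735-160421884, plus strand: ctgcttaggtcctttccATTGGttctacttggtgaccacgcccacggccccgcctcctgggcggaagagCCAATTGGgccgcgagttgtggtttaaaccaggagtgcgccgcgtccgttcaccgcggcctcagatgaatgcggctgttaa
BUB1B, chr15:40160949-40161098, plus strand: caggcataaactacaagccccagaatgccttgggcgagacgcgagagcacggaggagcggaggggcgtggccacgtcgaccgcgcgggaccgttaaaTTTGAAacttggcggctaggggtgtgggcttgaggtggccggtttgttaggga
NDC80, chr18:2571437-2571586, plus strand: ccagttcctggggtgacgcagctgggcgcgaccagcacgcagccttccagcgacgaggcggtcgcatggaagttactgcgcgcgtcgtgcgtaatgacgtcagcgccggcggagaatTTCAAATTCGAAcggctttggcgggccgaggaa
NUF2, chr1:163321834-163321983, plus strand: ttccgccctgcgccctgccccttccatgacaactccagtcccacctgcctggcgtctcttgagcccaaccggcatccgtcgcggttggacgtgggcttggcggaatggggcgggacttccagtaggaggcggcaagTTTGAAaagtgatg
PRC1, chr15:90994506-90994655, minus strand: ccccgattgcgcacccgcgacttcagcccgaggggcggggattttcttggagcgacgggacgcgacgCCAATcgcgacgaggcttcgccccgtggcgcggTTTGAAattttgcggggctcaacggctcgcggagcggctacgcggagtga
CHR letters were present in lower and in higher genes. HMMR, PLK1 and BUB1B, which were lower, and NUF2 and PRC1, which were higher, all hold a CHR match. PTTG1, which was lower, holds neither TTTGAA nor TTCGAA on either strand in this window. Other spellings of the CHR were not searched, so a window without a match cannot be taken to lack the element. In PLK1, BUB1B and PRC1 the match begins 29, 23 and 20 bases before the start, and in NUF2 it begins at base 17 after it. NDC80, which was lower, holds matches that begin at -3 and 4 relative to the start. In the 300-base windows NUF2 was not alone in having its only match after the start. BUB1 (base 2), MAD2L1 (25) and CENPF (41), which were lower, and NUSAP1 (14), which was higher, shared this.

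The cyclin and CDK1 group leaned lower, apart from CCNA2 and CDC25C, which lay near 0. Of 6 genes, 5 had a negative difference, the median was -0.31, and limma called none. CCNB1, the main mitotic cyclin, had intensities of 612, 614 and 652 with the SALL4 shRNA against 787, 853 and 695 with the scrambled shRNA, a log2 difference of -0.31 ± 0.18 (SE, adjusted p = 0.414). Its knockdown arrays lay within a narrow band below all control arrays. CCNB2, the second B-type cyclin, averaged 768 ± 63.5 with the SALL4 shRNA and 947 ± 66.7 in the scrambled arrays (SD, n = 3 each), again without overlap (-0.30). FOXM1, a transcription factor that activates many of these genes, had 428, 531 and 479.6 in the knockdown arrays against 666, 686 and 555 in the controls, and all knockdown values were below all controls (-0.41 ± 0.19, adjusted p = 0.30). CDK1, the kinase that the cyclins activate, had 179, 115 and 199 in the knockdown arrays against 302, 227 and 163 in the controls. Its difference was -0.48, but the groups overlapped and scrambled replicate 3 lay below 2 of the knockdown arrays. The difference was -0.24 without SALL4 shRNA replicate 2 and -0.27 without scrambled replicate 1, where that of FOXM1 was -0.48 and -0.37. CCNA2, the cyclin of S phase and early mitosis, had 549.5, 805 and 542 in the knockdown arrays against 712, 569.7 and 527 in the controls, with SALL4 shRNA replicate 2 as the highest array of all (0.05). CDC25C, a phosphatase that activates CDK1, ranged over 69.9 to 118 with the SALL4 shRNA and 86.5 to 121 in the scrambled arrays and differed by -0.05. Both genes changed sign without SALL4 shRNA replicate 2, CCNA2 to -0.132 and CDC25C to 0.195.

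Among the mitotic kinases PLK1 and BUB1B were lower without overlap, and the Aurora kinases lay nearer to 0 or above it. The 6 kinase genes had a median of -0.32, with 5 negative and none called. PLK1, which drives centrosome maturation, mitotic entry and cytokinesis, had 577, 612 and 426 with the SALL4 shRNA against 909, 666 and 771 with the scrambled shRNA. The groups did not overlap, and the log2 difference was -0.54 ± 0.21 (SE), with an unadjusted p of 0.0233 and an adjusted p of 0.212. BUB1B, which encodes the checkpoint protein BUBR1, had 741, 736 and 786 in the knockdown arrays against 993, 1003 and 955 in the controls. Both groups were tight and apart from each other, at -0.38 ± 0.17 (adjusted p = 0.29). BUB1, its paralogue at the kinetochore, ranged over 486 to 638 with the SALL4 shRNA and 635 to 846 in the scrambled arrays with overlap (-0.30), and TTK, the kinase that starts checkpoint signalling, over 339 to 662 with the SALL4 shRNA and 569 to 667 in the scrambled arrays (-0.34). In both genes SALL4 shRNA replicate 2 was the lowest array, without which BUB1 was at -0.18 and TTK at -0.06. BUB1 was at -0.16 without scrambled replicate 2. AURKA, the kinase of spindle poles, had 528, 499.9 and 446 in the knockdown arrays against 574, 560.3 and 495 in the controls (-0.14, with overlap). AURKB, the catalytic subunit of the chromosomal passenger complex, had 263, 351 and 227 in the knockdown arrays against 245, 254 and 212 in the controls and was the only kinase on the positive side (0.22 ± 0.21, or 0.05 without SALL4 shRNA replicate 2). Counting the checkpoint kinases BUB1, BUB1B and TTK with the kinetochore genes instead left a kinase median of -0.14 and a kinetochore median of -0.30.

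**Figure D3:**
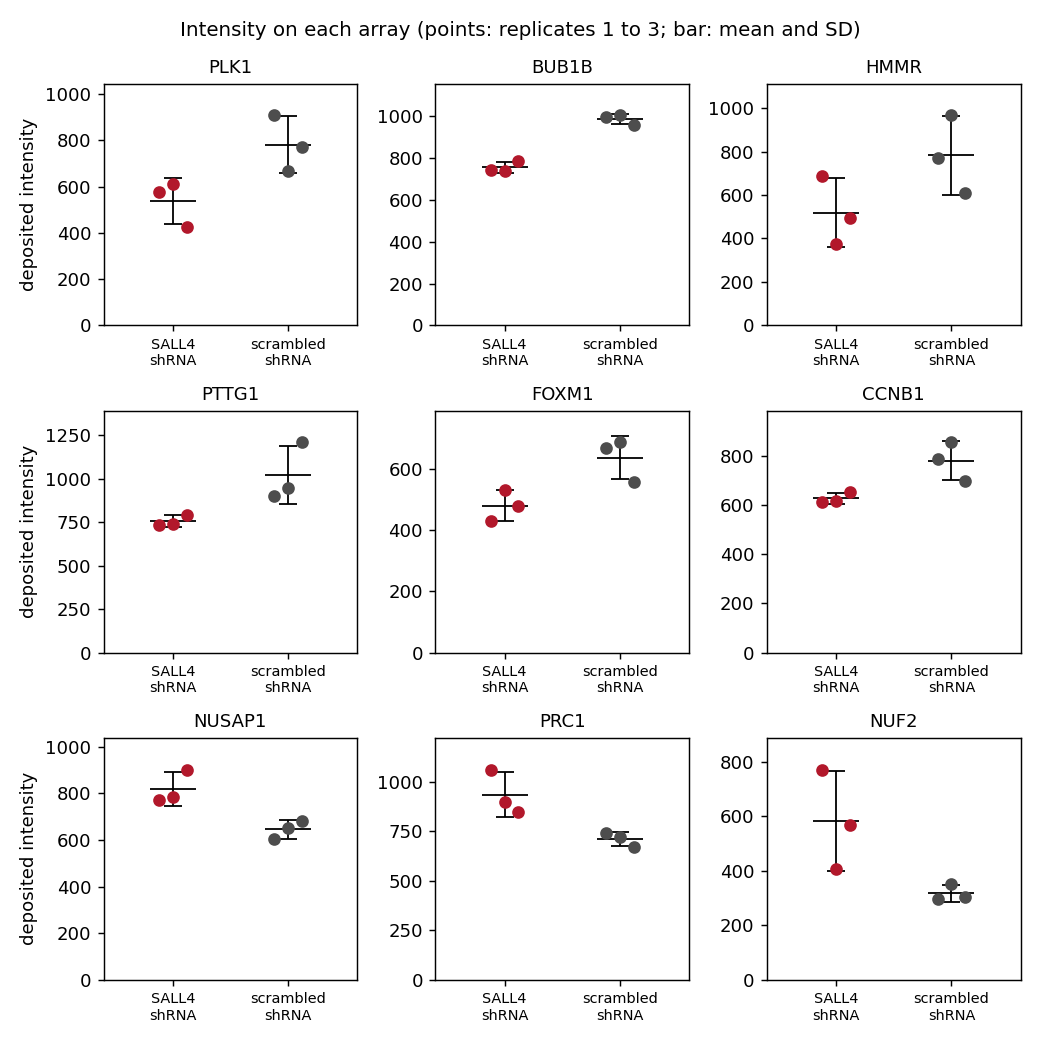
Deposited intensity (y axis, linear from 0) of 9 genes on each array, with SALL4 shRNA replicates left of scrambled replicates and bars for the mean and SD. In PLK1, BUB1B, PTTG1, FOXM1 and CCNB1 all SALL4 shRNA points lie below all scrambled points, in HMMR they overlap, and in NUSAP1, PRC1 and NUF2 all lie above.

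The kinetochore genes lay on both sides of 0, and this group held NUF2, the most positive of the 35 genes. Of 5 genes with a value 3 were negative and 2 positive, with a median of -0.22, which became 0.02 without SALL4 shRNA replicate 2 and scrambled replicate 3. NUF2, a subunit of the Ndc80 complex that grips microtubule ends, had 771, 407 and 567 with the SALL4 shRNA against 295, 353 and 303 with the scrambled shRNA. Each knockdown value was above each control value, although the knockdown arrays were widely spread, and NUF2 was 1.78-fold higher (log2 0.83 ± 0.24, SE, 95% interval 0.32 to 1.35). Its unadjusted p was 0.00403 and its adjusted p 0.0926 in limma. With the trend and robust settings of limma it passed, with an adjusted p of 0.0427. It did not pass with any 1 array left out: the difference was 0.61 (adjusted p = 0.227) without SALL4 shRNA replicate 1 and 1.07 (adjusted p = 0.0666) without replicate 2, and the other 4 fits gave adjusted p from 0.171 to 0.244. The adjusted p was 0.227 with no filter. CENPE, a kinesin that carries chromosomes to the spindle equator, had 472, 274 and 427 in the knockdown arrays against 298, 322 and 262 in the controls (0.38 ± 0.23). It was above all controls in SALL4 shRNA replicates 1 and 3 and inside the control range in replicate 2. CENPF, a large kinetochore protein, ranged over 808 to 1214 with the SALL4 shRNA and 1004 to 1328 in the scrambled arrays (-0.22), and MAD2L1, the checkpoint adaptor MAD2, over 219.6 to 235 with the SALL4 shRNA and 201 to 393 in the scrambled arrays (-0.31). The groups overlapped in both genes, and in MAD2L1 the scrambled arrays were the more spread. Leaving out scrambled replicate 2 put MAD2L1 at -0.07, and leaving out SALL4 shRNA replicate 2 put CENPF at -0.08.

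Of the 4 subunit genes of the Ndc80 complex, NUF2 had a positive difference and the other 3 had negative differences, none of which passed. NDC80, the direct partner of NUF2 in the complex, had 533, 331 and 323 with the SALL4 shRNA against 544, 499.5 and 487 with the scrambled shRNA (-0.41 ± 0.22, SE). SALL4 shRNA replicates 2 and 3 lay below the controls and replicate 1 inside their range. SPC25, a subunit of the inner end that is not among the 36 genes, had 136, 82.5 and 162 in the knockdown arrays against 189.7, 265 and 244 in the controls, all lower, with a log2 difference of -0.92 ± 0.25 and a limma adjusted p of 0.0874. SPC24, its partner, ranged over 28.4 to 49.9 with the SALL4 shRNA and 40.7 to 53.8 in the scrambled arrays (-0.26). The within-array log2 ratio of NUF2 to NDC80, set to a scrambled mean of 0, was 1.22, 0.99 and 1.5 in the SALL4 shRNA arrays and -0.20, 0.19 and 0.01 in the scrambled arrays. This ratio was picked after its values were seen and is given as a description.

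**Figure D4:**
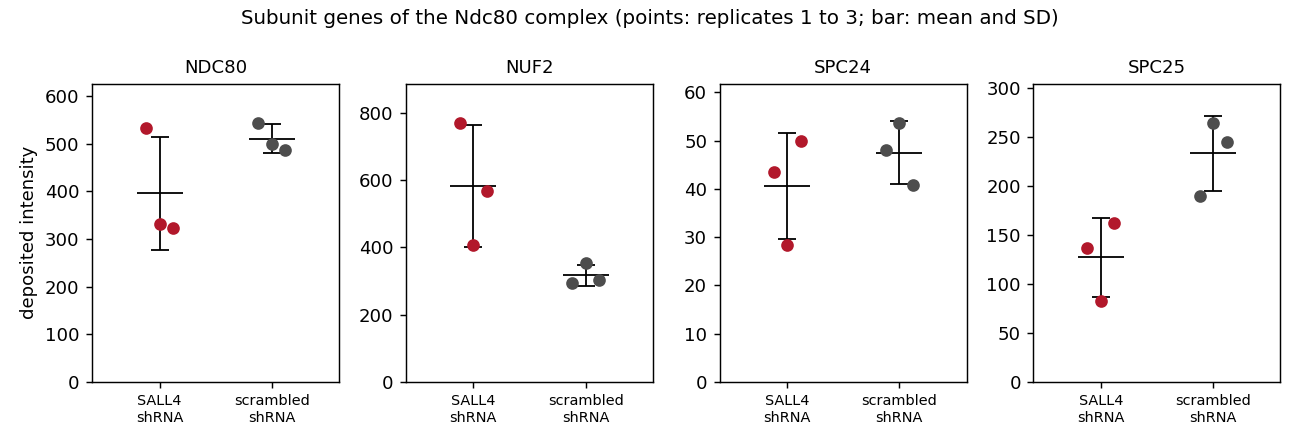
Deposited intensity (y axes, linear from 0, one scale per gene) of the 4 Ndc80 complex subunit genes on each array, with SALL4 shRNA replicates left of scrambled replicates and bars for the mean and SD. NUF2 lies higher in all 3 SALL4 shRNA arrays and SPC25 lower in all 3, while NDC80 and SPC24 overlap.

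Spindle motors and microtubule-associated genes lay on both sides of 0. Of 10 genes, 6 were negative and 4 positive, the median was -0.13, and none was called. HMMR, a microtubule-binding protein of the spindle pole, had 688, 374 and 495 with the SALL4 shRNA against 772, 967 and 607 with the scrambled shRNA. It had the most negative difference of the whole set (-0.61 ± 0.25, SE, adjusted p = 0.247), yet SALL4 shRNA replicate 1 lay above scrambled replicate 3. Without SALL4 shRNA replicate 2 it was -0.40, and PLK1 (-0.65), FOXM1 (-0.48), CDC20 (-0.45) and PTTG1 (-0.41) were more negative. The kinesin genes KIF20A (-0.38) and KIF23 (-0.37), both needed for the central spindle, and KIF2C (-0.46), a microtubule depolymerase, were on the same side. KIF20A ranged over 465 to 687 with the SALL4 shRNA and 756 to 811 in the scrambled arrays without overlap, whereas KIF23 (897 to 1340.2 with the SALL4 shRNA and 1232 to 1424 in the scrambled arrays) and KIF2C (88.4 to 201 with the SALL4 shRNA and 161 to 200.2 in the scrambled arrays) overlapped. Without SALL4 shRNA replicate 2, KIF2C was at -0.17 and KIF20A at -0.19. PRC1, the bundler of antiparallel microtubules that recruits KIF4A to the same central spindle, had 1063, 896 and 848 in the knockdown arrays against 741, 722 and 674 in the controls. All its knockdown values were above all controls (0.39 ± 0.18, unadjusted p = 0.055, adjusted p = 0.309). NUSAP1, which stabilises microtubules near chromosomes, averaged 819 ± 72.8 with the SALL4 shRNA and 645 ± 39.2 in the scrambled arrays (SD, n = 3 each), also without overlap (0.34 ± 0.18). TPX2, the activator of AURKA on the spindle, averaged 1327 ± 152 with the SALL4 shRNA and 1228 ± 154 in the scrambled arrays (0.11), and CKAP2 713 ± 67.7 with the SALL4 shRNA and 689 ± 66.3 in the scrambled arrays (0.05). KIF11, the motor that separates spindle poles, averaged 928 ± 199 with the SALL4 shRNA and 939.9 ± 156 in the scrambled arrays (-0.03), and DLGAP5, a factor of kinetochore fibres, 854 ± 113 with the SALL4 shRNA and 1001 ± 165 in the scrambled arrays (-0.22). In these last 4 genes the groups overlapped.

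The 3 genes of the anaphase-promoting complex axis were all negative, with a median of -0.36. PTTG1, which encodes securin, the inhibitor of separase, had 732, 742 and 793 with the SALL4 shRNA against 903, 948 and 1209 with the scrambled shRNA. The knockdown arrays were close together below all controls, at -0.42 ± 0.19 (SE, unadjusted p = 0.0452, adjusted p = 0.284). CDC20, the activator of the complex and the target of the checkpoint, ranged over 345 to 412 with the SALL4 shRNA and 398 to 605 in the scrambled arrays (-0.36), with overlap through 1 array of each group. Without scrambled replicate 1 it was at -0.18. UBE2C, the ubiquitin-conjugating enzyme of the complex, had 529, 385 and 549 in the knockdown arrays against 569, 461 and 437 in the controls and differed by -0.01, with a 95% interval of -0.46 to 0.44. Its groups overlapped.

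The 2 cytokinesis genes and the 3 chromosome and passenger genes all had small negative differences, with medians of -0.12 and -0.15, and none was called. ANLN, the actin-binding scaffold of the contractile ring, had 891, 732 and 924 with the SALL4 shRNA against 1079, 950.0 and 870.3 with the scrambled shRNA (-0.19). ECT2, the exchange factor that activates RHOA at the cleavage furrow, had 613, 496 and 517 in the knockdown arrays against 618, 593 and 473 in the controls (-0.05, 95% interval -0.47 to 0.37). The groups overlapped in both genes. MKI67, the proliferation antigen Ki-67 that coats mitotic chromosomes, had 1189.8, 1383 and 1593 in the knockdown arrays against 1625, 1495 and 1311 in the controls (-0.09, 95% interval -0.51 to 0.33), and TOP2A, the DNA topoisomerase of chromosome condensation, had 970.0, 924 and 1004 in the knockdown arrays against 1210.2, 1063 and 952 in the controls (-0.15, 95% interval -0.55 to 0.25). The groups overlapped in both, and these intervals leave out a 2-fold difference in either of these widely used proliferation markers. BIRC5, the survivin subunit of the chromosomal passenger complex, had 1153, 1179.9 and 1724 in the knockdown arrays against 2011, 1637 and 1195 in the controls (-0.25 ± 0.24, SE), with overlapping groups, and was at -0.07 without scrambled replicate 1. Its dimmer second probe set gave -0.32, and it was the only one of the 35 genes with more than 1 probe set.

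Other genes of the same machinery were also negative more often than all genes in the fit. They were chosen for their roles, but with earlier results of these data known. Of 96 listed genes 94 entered it, 61 with a negative (64.9%, against 48% of all genes) and 33 with a positive difference, and the median was -0.13. Limma called 1 of 94, PKMYT1 (lower; 1.06% of the fit was called lower). At an unadjusted p under 0.05 there were 24 (25.5%, against 16.9% of all genes), 18 lower (8.92% of all genes) and 6 higher (8%). PKMYT1, an inhibitory kinase of CDK1, had 44.6, 55.1 and 43.3 with the SALL4 shRNA against 87.2, 79.2 and 90.1 with the scrambled shRNA and fell by 0.85 ± 0.19 (SE, log2, adjusted p = 0.046). It did not pass in any fit that left out an array, where its adjusted p ran from 0.067 without SALL4 shRNA replicate 2 to 0.132 without scrambled replicate 1, nor with no filter (0.108) or quantile normalization (0.0516). WEE1, the other inhibitory kinase of CDK1, had 447, 657 and 549 in the knockdown arrays against 329, 315 and 409 in the controls, all knockdown values being higher (0.64 ± 0.21, adjusted p = 0.134). These values are from the brightest of 3 WEE1 probe sets, and the dimmer ones are not described here. The CDC25 phosphatase genes, looked up after their values were seen, lay on both sides of 0, with CDC25A at -0.45, CDC25B at 0.47 and CDC25C at -0.05.

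The most negative of the other machinery genes with an unadjusted p under 0.05 were CENPH, SGO1 and SPC25. CENPH, of the constitutive centromere network, had 19.3, 17.2 and 12 with the SALL4 shRNA against 48.4, 37.7 and 19.6 with the scrambled shRNA. It entered the fit only through its scrambled mean and lies near the floor, so its log2 difference of -1.05 (adjusted p = 0.102) rests on dim values. SGO1, the shugoshin that protects centromeric cohesin, had 400.1, 156 and 246 in the knockdown arrays against 396, 616 and 475 in the controls (-0.97 ± 0.30, SE, adjusted p = 0.125), with overlap through SALL4 shRNA replicate 1. The most positive were ANAPC11, CENPI and WEE1. ANAPC11, the RING subunit of the anaphase-promoting complex, had 310.2, 382 and 451 in the knockdown arrays against 262, 254 and 145 in the controls (0.82 ± 0.25, adjusted p = 0.118). It has 2 probe sets, of which only the brighter is described here. CENPI, a centromere protein of the same network as CENPH, had 294, 199 and 273 in the knockdown arrays against 114, 166 and 197 in the controls (0.70 ± 0.24, adjusted p = 0.16). In both ANAPC11 and CENPI all knockdown values were above all controls.

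By subgroup, the median was -0.07 for 27 further kinetochore genes, -0.18 for 18 spindle genes, -0.04 for 13 kinases and cyclins and -0.09 for 13 subunits and partners of the anaphase-promoting complex. It was -0.23 for 15 condensin and cohesin genes and -0.26 for 8 cytokinesis and passenger genes. For comparison, the median over 36 G1/S and replication genes was -0.33, with 28 negative (77.8%, against 48% of all genes), 0 called (1.6% of all genes) and 9 (25%, against 16.9%) at an unadjusted p under 0.05, all lower. No test was made of the difference between these groups.

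Among regulators of the programme MYBL1 fell, and the others did not pass. Of 18 genes of G2/M transcriptional control, 12 were negative (66.7%, against 48% of all genes), and the median was -0.21. Limma called 1 lower (1.06% of the fit was called lower). An unadjusted p under 0.05 was reached by 5 (27.8%, against 16.9% of all genes), all lower (8.92% of all genes). MYBL1, which encodes A-MYB, a relative of the B-MYB activator, had 78.9, 56.5 and 89.2 with the SALL4 shRNA against 128, 216 and 177 with the scrambled shRNA. It fell by 1.21 ± 0.24 (SE, log2), which is 2.31-fold (adjusted p = 0.032). When arrays were left out in turn it passed only without scrambled replicate 1 (adjusted p = 0.0493), and the other fits gave 0.0684, 0.0898 and 0.0502 without SALL4 shRNA replicate 1, 2 and 3 and 0.117 and 0.0894 without scrambled replicate 2 and 3. Across these fits the difference stayed between -1.41 and -1.02. The call was also lost with no filter on dim genes (adjusted p = 0.155) and without SALL4 shRNA replicate 2 and scrambled replicate 3 together (0.169). MYBL2, B-MYB itself, had 381, 356 and 270.4 in the knockdown arrays against 378, 327 and 277 in the controls and differed by 0.03 (95% interval -0.42 to 0.48). The MuvB core subunits lay on both sides of 0, with RBBP4 at -0.67 (unadjusted p = 0.0234, adjusted p = 0.213), LIN52 at -0.59, LIN54 at -0.27 and LIN37 at 0.20. The groups overlapped in all of these, and in LIN52 scrambled replicate 3 (478) lay far above the other arrays (146 to 263). The pocket proteins of DREAM had negative differences, and neither passed. RBL1 was at -0.59 (adjusted p = 0.261) with overlapping groups, and RBL2 was at -0.47 (adjusted p = 0.284) without overlap. LIN9, the fifth MuvB subunit, averaged 327 ± 103 with the SALL4 shRNA and 307 ± 28.3 in the scrambled arrays (0.04), and E2F1, the activator of G1/S genes, 188 ± 22.1 with the SALL4 shRNA and 197 ± 3.2 in the scrambled arrays (-0.07). CDKN1A, the CDK inhibitor p21 whose induction represses mitotic genes through DREAM, had 109.5, 86.8 and 93.8 in the knockdown arrays against 83.8, 66.4 and 73.1 in the controls. All its knockdown values were above the controls, by 0.38 ± 0.19 (SE, adjusted p = 0.341).

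**Figure D5:**
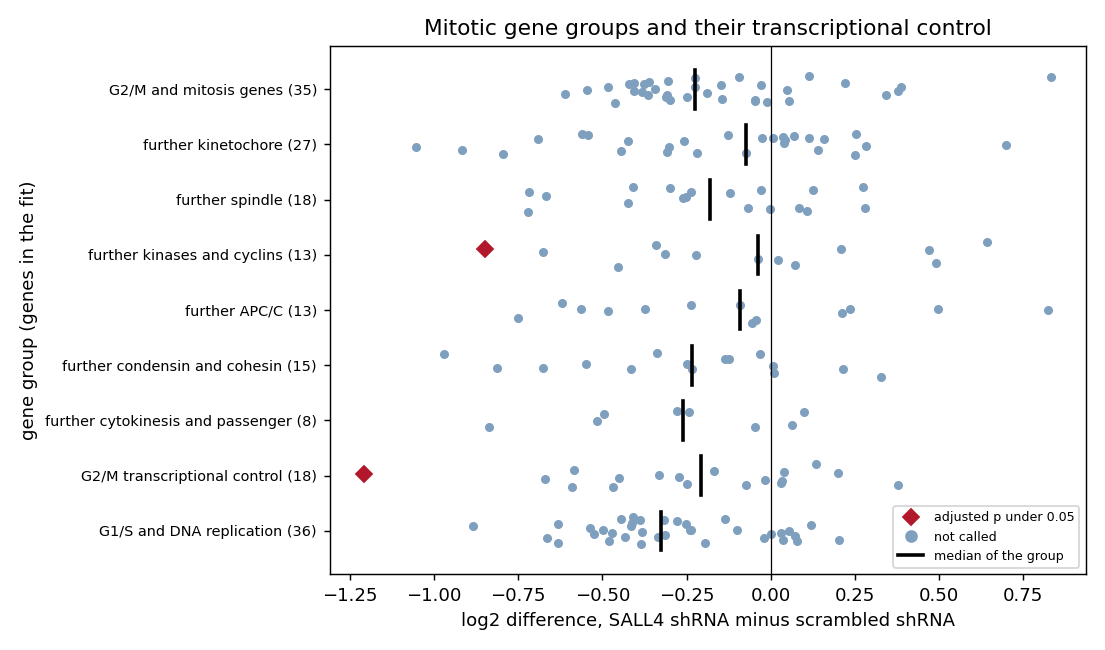
Log2 difference (x axis, SALL4 shRNA minus scrambled shRNA) of single genes in 9 gene groups (y axis, with the number of genes), with a black bar at each group's median and red diamonds for genes with an adjusted p under 0.05. The diamonds are PKMYT1 at -0.85 and MYBL1 at -1.21, and all 9 medians lie left of 0, between -0.33 and -0.04.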

How the data were processed

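RNA was measured on 6 Affymetrix arrays. The deposited intensity values are on a linear scale with a floor of 10, made by the authors with RMA, per the submitters' processing notes; the sources used here name no step after RMA. Of 32319 probe sets, 19158 are annotated to 1 gene symbol, 1388 to several and 11773 to none, and 19128 were matched to current symbols by Entrez identifier. Genes came only from probe sets with 1 symbol, and for 637 genes with more than 1 the brightest was used. Array medians ranged from 47.85 to 51.69, and 15.52% to 16.91% of values lay at the floor.

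Here log2 of the intensity was taken with no further normalization. The test was limma 3.58.1 (R 4.3.3; lmFit and eBayes) on genes with a mean log2 of at least 5 (intensity 32) in at least 1 group, with Benjamini-Hochberg adjustment over all 13711 genes and a threshold of 0.05. "Rose", "fell" and "called" refer to this threshold. The p-values set each difference against the spread between these 3 cultures a group. The variance of each gene was moderated by that of all genes in the fit (prior degrees of freedom 8.01). The script was tested on simulated data. The members, lists and filter were chosen with earlier results of these data known. Per-array values are given for genes with an unadjusted p under 0.05, for the 3 most negative and most positive, for the extremes of each role group and for fixed key genes (CCNB1, CDK1, PLK1, AURKA, MKI67, TOP2A, FOXM1, NUF2, NDC80, HMMR). Among the further genes, those called and the 3 most negative and positive with an unadjusted p under 0.05 are named, with SPC24, CDC25A, CDC25B, the MuvB subunits other than LIN9 and the pocket proteins added after their values were seen. Promoter sequences come from RefSeq (GRCh38.p14).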

Additional observations from a re-analysis of the deposited data

How the results depend on the processing

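The precision is limited by 3 arrays per group. The count of all genes called, 220, became 0 with no filter, 500 with limma's trend and robust settings, 41 with the replicate number as a block and 15 without scrambled replicate 3 and SALL4 shRNA replicate 2 together, and ranged from 39 to 103 when 1 array was left out. The count of mitotic genes called stayed at 0 except for 1 (NUF2) with trend and robust. The 5 at an unadjusted p under 0.05 became 9 with no filter, 10 with trend and robust and 3 with the block, and 1 to 6 with 1 array left out. The 1 further mitotic gene called became 7 with trend and robust, and 0 with no filter, quantile normalization, the block or both arrays out, and 0 to 1 with 1 array left out. The SALL4 difference lost the call at -1.30 with no filter (adjusted p = 0.0946) and at -1.20 with both arrays out (adjusted p = 0.0724). Fits with fewer arrays leave fewer degrees of freedom. The prior degrees of freedom of the variance moderation were 1.09 with no filter, against 8.01 in the filtered fit. Otherwise the cause was not tested. With both arrays out, the kinetochore median was 0.0222, and the differences changed sign to -0.22 for CCNA2, 0.0845 for CDC25C, -0.0301 for AURKB, 0.0222 for CENPF, 0.0919 for KIF11 and 0.0744 for UBE2C. Regrouping the checkpoint kinases gave a kinase median of -0.145. With 1 array left out, the medians ran from -0.38 to -0.17 for kinases, from -0.42 to -0.18 for the anaphase-promoting complex axis, from -0.32 to -0.07 for the kinetochore, from -0.21 to -0.07 for the spindle, from -0.21 to -0.04 for cytokinesis and from -0.23 to -0.06 for chromosome and passenger genes, and differences crossed 0 for MKI67 (-0.20 to 0.0127), CCNA2 (-0.13 to 0.18), CDC25C (-0.18 to 0.20), KIF11 (-0.13 to 0.16), UBE2C (-0.11 to 0.15) and ECT2 (-0.17 to 0.0271). Replicate numbers did not pair the arrays: deviations of same-numbered arrays correlated at 0.00289, -0.083 and -0.0388, and no array correlated best with its own number. With the replicate block the adjusted p was 0.077 for MYBL1, 0.105 for PKMYT1 and 0.152 for NUF2.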

Other observations

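Among the mitotic genes with both a promoter window and a value, 20 held the CHR letters TTTGAA or TTCGAA. Of these, 17 had a negative difference, and the median log2 difference was -0.26. Another 9 held neither, 5 of them with a negative difference and a median of -0.05. Over all genes in the fit 48% were negative. Other spellings of the CHR were not searched, so these 9 genes cannot be taken to lack the element. The split was made after the values were seen and was not tested.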
